A study of Mus musculus with 43 samples.

Results

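The whole pre-enrichment workflow was compared with a benchtop hold in the mouse pancreatic ductal adenocarcinoma line PD798, to see which transcripts differ once cells have been through magnetic depletion, red cell lysis, acoustic washing and sorting. Of the 43 samples of the series, the comparison takes 6 libraries of bulk RNA, 3 named Pre-enriched and 3 named Mock, from an experiment of 12 libraries that also holds 3 Pre-FACS and 3 FACS-only libraries. All 12 share the line, which came from an engineered mouse with a pancreatic tumor. That mouse carries Pdx1-cre, which drives Cre recombinase in the pancreas, together with p53 L/+ and the fluorescent reporter Rosa YFP/YFP. The cells were grown in DMEM with 10% serum for 48 to 72 h before they were detached.

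Pre-enriched cells were incubated with magnetic particles, met red blood cell lysis buffer, passed the magnet and the acoustic chip, and were then sorted on a BD Influx. Mock cells were not run through any instrument and stood on the bench at room temperature in staining buffer for a matching time. The contrast therefore takes the holding time out and leaves particles, lysis buffer, magnet, acoustics and sorting together, so that the steps cannot be told apart within it. The labels of every library speak of cells mixed into normal mouse blood, which the study's account of this experiment does not, and which of these holds was not settled here. The labels name no separate cultures, and p-values therefore measure only the spread between these libraries, which may be technical.

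Handling of living cells is known to reach the transcriptome by several routes. Detachment and stirring can induce the immediate-early genes, such as Fos and Egr1, within a short time. Heat and misfolded protein act through Hsf1 on chaperone genes, amino acid shortage acts through Atf4, inflammatory signals act through NF-kB, and shear acts through the YAP and SRF factors. Red cell lysis buffers can strain osmotic and lysosomal balance, and iron that enters cells is met by ferritin and heme enzymes.

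The members of the comparison were the genes listed at 1 TPM or more in at least 3 of the 12 libraries, 12159 of the 13845 in the table. TPM is a level corrected for transcript length that adds to 1000000 in each library. Of the members, 46.5% had a positive and 53.5% a negative difference. Differences below are Pre-enriched minus Mock on the log2(TPM + 1) scale, which understates the change of genes of low level. They were tested with limma in a model of all 4 conditions, with Benjamini-Hochberg adjustment over all 12159 genes. TPM keeps no record of the reads behind it, so the depth of the libraries is unknown.

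The cells carried transcripts of epithelium in both groups, and the mesenchymal gene Vim was also high, at 1012 to 1085 TPM. Not every epithelial marker was high, with the tight junction gene Cldn7 at 3.43 to 7.65 TPM. The keratin genes Krt8 and Krt18, which encode the filament pair of simple epithelia, had 7041 to 7958 TPM and 8553 to 9896 TPM over the 6 libraries. The adhesion gene Cdh1 had 980, 1022 and 1006 TPM in Mock and 976, 1024 and 985 TPM in Pre-enriched. Cdh1 and Epcam both encode surface antigens that the workflow's stain detects. Epcam had 37.5, 35.6 and 32.1 TPM in Mock and 34.8, 33.1 and 35.2 TPM in Pre-enriched. The ranges of these genes overlapped between the groups.

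Markers of blood cells were near 0 apart from a few genes that are not particular to blood. The defining leukocyte genes Ptprc (0.137 to 0.556 TPM), Laptm5 (0 to 0.383 TPM) and Coro1a (0.412 to 2.30 TPM) were low in all 6 libraries, as were the red cell gene Alas2 (0 to 3.33 TPM) and the platelet gene Itga2b (0 to 0.978 TPM). The 6 leukocyte markers in the table summed to 324 to 340 TPM in Mock and 311 to 356 TPM in Pre-enriched, nearly all of it Cd14 (298 to 343 TPM). The 8 markers of red cells and platelets summed to 147 to 157 TPM and 153 to 160 TPM, most of it Bpgm and Itgb3. The other 24 leukocyte and 14 red cell and platelet markers of the lists were not analysed here.

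No gene differed between Pre-enriched and Mock cells at an adjusted p under 0.05 (0 of 12159 genes, 0%), and the lowest adjusted p was 0.192. At an unadjusted p under 0.05 there were 945 genes (7.77%), split into 388 with the higher level in Pre-enriched (3.19%) and 557 with the lower (4.58%). With the trend of each library with transcript length removed, which was chosen after the data had been seen, the split was 512 higher and 465 lower, and without Mock 1 it was 415 and 367. The 3 Pre-enriched values lay all above the 3 Mock values in 802 genes (6.60%) and all below in 1071 genes (8.81%), together 15.4%. Under other models, filters and choices of libraries, between 0 and 4 genes were called, and these are named below or with the other processing choices.

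The size of difference that these data leave room for was small for most genes. The 95% interval of the difference lay within 1.5-fold in either direction for 9830 genes (80.8%) and within 2-fold for 11769 genes (96.8%). The share within 1.5-fold was higher at higher level, with 24.4% of 2029 genes under 5 TPM, 75.7% of 2836 genes at 5 to 20 TPM, 98.1% of 4955 genes at 20 to 100 TPM and 99.5% of 2264 genes at 100 to 1000 TPM. All 75 genes at 1000 TPM or more were within it. For 11 genes the interval lay wholly beyond 1.5-fold.

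**Figure D1:**
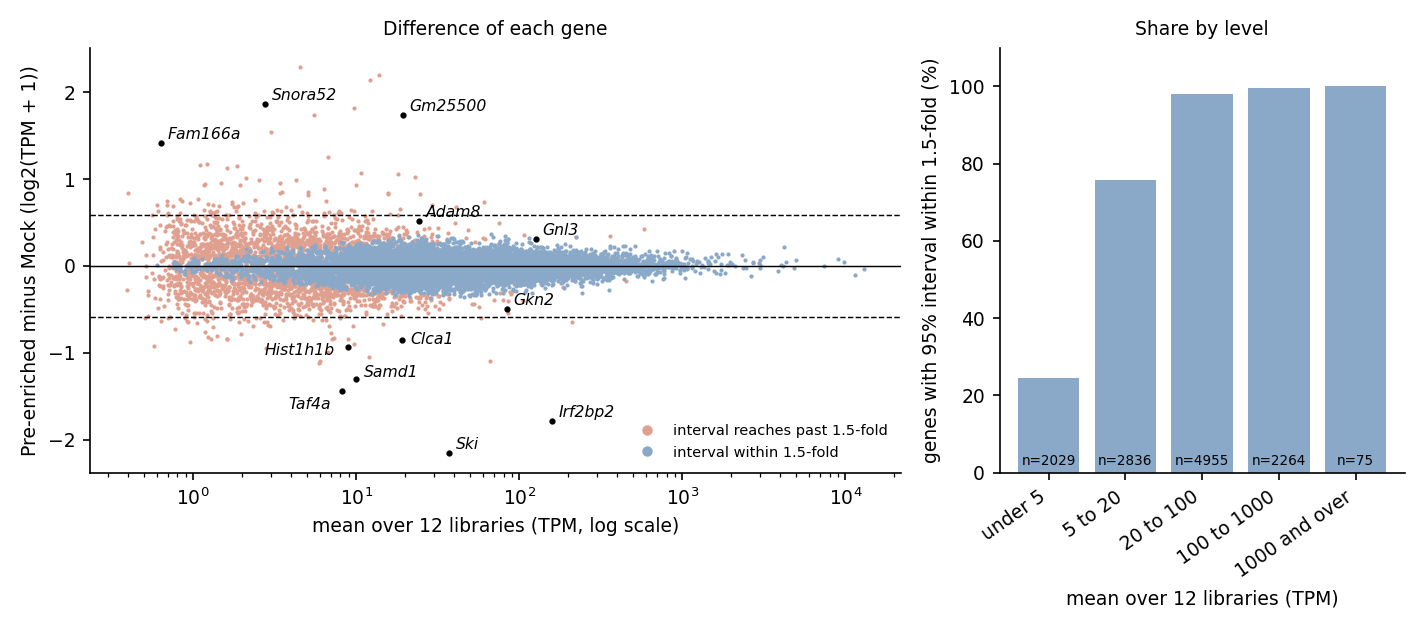
The left panel plots the difference of each of 12159 genes, Pre-enriched minus Mock on the log2(TPM + 1) scale, against its mean over 12 libraries in TPM on a log axis, with dashed lines at 1.5-fold and genes coloured by whether the 95% interval stays between those lines, and with some genes of the text as named black points. The right panel gives the percentage of genes whose interval stays within 1.5-fold in 5 classes of mean level, rising from 24.4% under 5 TPM to 100% at 1000 TPM and over.

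Libraries of the same and of different conditions resembled each other almost equally. Pearson's r across genes ranged from 0.9885 to 0.9915 over the pairs of the 6 libraries, with a mean of 0.9913 within Pre-enriched, 0.9905 within Mock and 0.9899 over the 9 pairs between them. The excess of r within conditions was 0.000957, which an exact one-sided permutation test gave a p of 0.1, the smallest that the 10 splits of 6 libraries allow. The median SD of a gene over replicates, for the 10130 genes with a mean of at least 5 TPM, was 0.0967 in Pre-enriched and 0.0974 in Mock on the log2(TPM + 1) scale.

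The 10 genes of lowest p among those higher in Pre-enriched included a metalloprotease, a nucleolar protein and a nuclear pore protein. Adam8, which encodes a membrane-bound protease that sheds surface proteins, had 16.7, 20.3 and 22.8 TPM in Mock and 29.4, 28.4 and 28.5 TPM in Pre-enriched. Its 3 Pre-enriched values were all above those of Mock, by 0.52 on the log2 scale (SE 0.11, limma adjusted p 0.233). The sorted cells of FACS-only, with 28.8, 28.5 and 28.9 TPM, stood level with Pre-enriched, and Pre-FACS, with 18.7, 20.9 and 19.6 TPM, stood level with Mock.

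Gnl3, the nucleolar GTP-binding protein nucleostemin, followed the same order. It had 121, 110 and 111 TPM in Mock and 140, 142 and 141 TPM in Pre-enriched, without overlap and with a difference of 0.30 (SE 0.07, limma adjusted p 0.254). FACS-only had 141, 145 and 141 TPM. In bulk RNA, fewer cells with a transcript and less of it in each cell cannot be told apart.

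Yeats4, a reader of acylated histones in chromatin remodeling complexes, had 26.8, 23.5 and 28.2 TPM in Mock and 35.5, 36.8 and 34.5 TPM in Pre-enriched. The difference was 0.43 (SE 0.09, limma adjusted p 0.255), and the groups did not overlap. Tpr, a filament protein of the nuclear pore basket, had 56.3, 58.5 and 57.5 TPM in Mock and 72.3, 75.3 and 76.1 TPM in Pre-enriched, also without overlap (difference 0.37). Lgi2, of a family of secreted leucine-rich proteins, had 5.91, 5.36 and 6.68 TPM against 11.0, 10.2 and 8.44 TPM.

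The gene of lowest p overall was Fam166a, at a level near the limit of the filter. It had 0.119, 0 and 0.350 TPM in Mock and 2.18, 1.75 and 2.27 TPM in Pre-enriched, and between 0 and 0.351 TPM in the 6 other libraries. The difference was 1.41 (SE 0.23, limma adjusted p 0.192). It is the 1 gene that passed the filter only through its Pre-enriched values, so that it had to differ. Fam166a lies on chromosome 2 of mm10 (25218745 to 25222280, plus strand) and shares its last 121 bases with the end of Tubb4b on the opposite strand, a beta-tubulin gene at 530 ± 29.0 TPM in Mock and 507 ± 44.2 TPM in Pre-enriched (SD, n = 3). The library kit does not mark strand, so reads in the shared stretch cannot be told apart. Without the filter and without the mean-variance trend Fam166a was called, with limma adjusted p of 0.00463 and 0.00294.

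The remaining genes of lowest p on the higher side were short or of low level. They were the antisense transcript 2900060B14Rik (0.876 to 1.12 TPM in Mock and 2.42 to 4.93 TPM in Pre-enriched), Ccdc78, a coiled-coil protein of ciliated cells (0.0795 to 0.731 and 1.57 to 2.46 TPM), the small nucleolar RNA gene Gm25500 (4.43 to 11.4 and 13.1 to 41.2 TPM) and Gm15708 (0.666 to 1.37 and 2.05 to 3.19 TPM). In each of them the groups did not overlap.

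**Figure D2:**
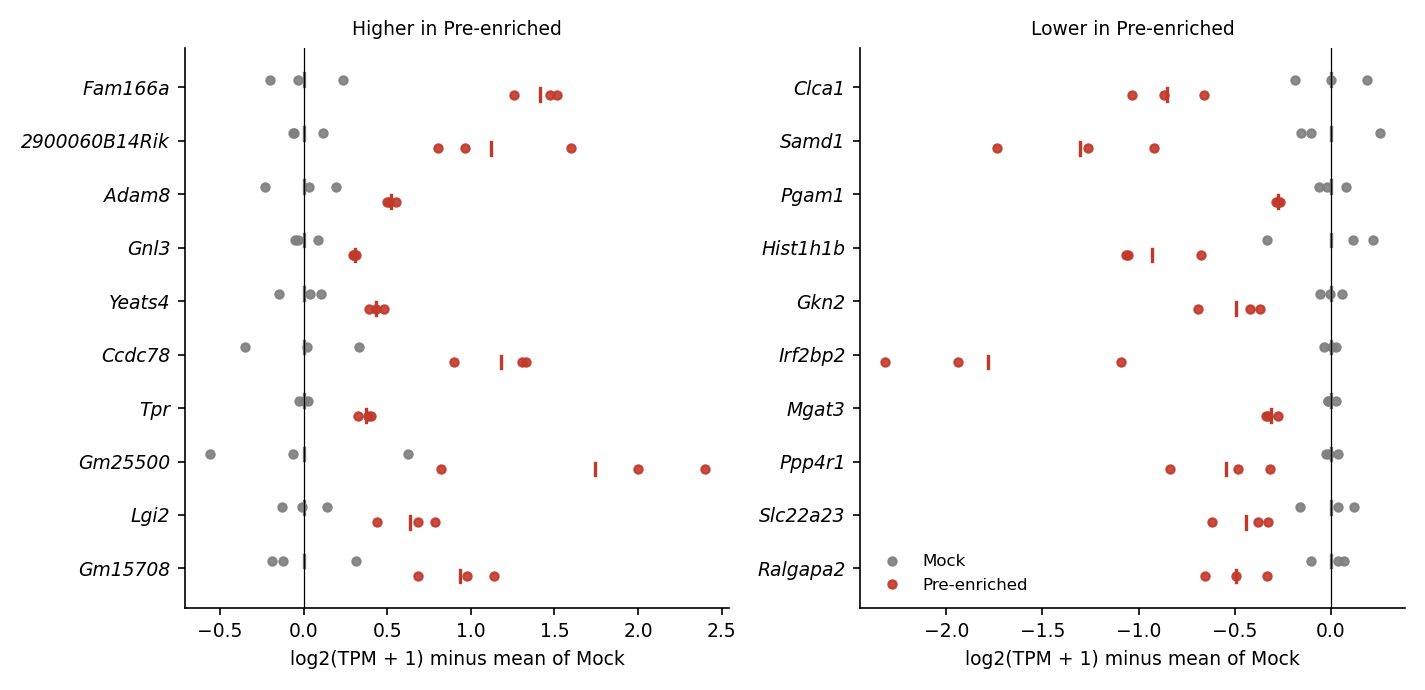
Each point is 1 library, as log2(TPM + 1) minus the mean of the 3 Mock libraries, for the 10 genes of lowest p that were higher in Pre-enriched (left) and the 10 that were lower (right), with vertical strokes at the mean of each condition. Mock points scatter around 0 and no Pre-enriched point reaches the Mock points of its gene. The genes were picked for this separation, and none passed the adjusted threshold.

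Among the 10 genes of lowest p that were lower in Pre-enriched, a pair encode secreted proteins of mucous epithelium. Clca1, a goblet cell protein that acts on chloride channels, had 22.8, 19.9 and 26.1 TPM in Mock and 10.6, 12.1 and 14.1 TPM in Pre-enriched. The groups did not overlap, and the difference was -0.85 (SE 0.15, limma adjusted p 0.233). Pre-FACS libraries had 27.4, 21.5 and 23.8 TPM, close to Mock, and FACS-only libraries had 15.9, 14.1 and 20.9 TPM.

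Gkn2, a gastrokine secreted by surface mucous cells of the stomach, had 93.0, 89.5 and 97.2 TPM in Mock and 57.2, 71.9 and 69.4 TPM in Pre-enriched. This was a difference of -0.49 (SE 0.10, limma adjusted p 0.233). In the other 6 libraries Gkn2 ranged from 78.2 to 111 TPM, so that all 3 Pre-enriched values lay below each of the 9 others.

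Pgam1, the phosphoglycerate mutase of glycolysis, showed a small difference at high level. It had 357, 393 and 367 TPM in Mock and 306, 308 and 309 TPM in Pre-enriched (difference -0.27, SE 0.05, limma adjusted p 0.233). The Pre-enriched values lay close together and below every Mock value. Near-identical pseudogenes of Pgam1 could take part of its reads, so the level is uncertain.

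The linker histone gene Hist1h1b had 12.8, 11.9 and 8.44 TPM in Mock and 4.72, 6.44 and 4.68 TPM in Pre-enriched (difference -0.93, SE 0.18). Mgat3, the Golgi enzyme that adds the bisecting sugar to N-glycans, had 125, 129 and 125 TPM against 100, 104 and 99.8 TPM. Ppp4r1, a regulatory subunit of protein phosphatase 4, had 105, 102 and 101 TPM against 57.1, 73.2 and 82.3 TPM. These groups did not overlap, nor did those of the carrier gene Slc22a23 (difference -0.44) and of Ralgapa2, a subunit of a Ral GTPase-activating complex (difference -0.49).

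The largest negative differences of protein-coding genes were those of Ski, Irf2bp2, Taf4a and Samd1. Ski, a corepressor that restrains Smad signaling, had 70.0, 69.7 and 67.0 TPM in Mock and 7.17, 14.3 and 29.8 TPM in Pre-enriched. The Mock values were 4.03 times the Pre-enriched values on average, without overlap, with a log2 difference of -2.16 (SE 0.54, limma adjusted p 0.405). The 3 Mock libraries were close together, whereas the Pre-enriched, Pre-FACS (17.7, 44.4 and 51.5 TPM) and FACS-only (49.2, 18.6 and 6.80 TPM) libraries spread widely within their own condition.

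Irf2bp2, a corepressor and partner of Irf2, behaved in the same manner. It had 287, 283 and 275 TPM in Mock and 55.7, 72.7 and 132 TPM in Pre-enriched (log2 difference -1.78, SE 0.36, limma adjusted p 0.233). Taf4a, a subunit of the general transcription factor TFIID, had 13.8, 14.4 and 14.1 TPM in Mock and 2.25, 4.95 and 7.99 TPM in Pre-enriched (log2 difference -1.44, SE 0.33). In both genes, as in Ski, the same Pre-enriched library was lowest (number 1) and the same was highest (number 3).

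Samd1, which binds unmethylated CpG islands, had 16.0, 20.8 and 15.4 TPM in Mock and 6.62, 4.50 and 8.66 TPM in Pre-enriched (log2 difference -1.31, SE 0.25, limma adjusted p 0.233). The 6 other libraries, from 4.84 to 10.9 TPM, also lay below every Mock value. When only the 6 libraries compared were fitted, Irf2bp2 (adjusted p 0.00672), Mt2 (0.00905), Ski (0.0329) and Samd1 (0.0408) were called by limma. That fit leaves out the Pre-FACS and FACS-only libraries, in which Ski, Irf2bp2 and Mt2 spread widely. Irf2bp2 had 95.1, 160 and 196 TPM in Pre-FACS and 205, 91.9 and 55.9 TPM in FACS-only, all below every Mock value.

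**Figure D3:**
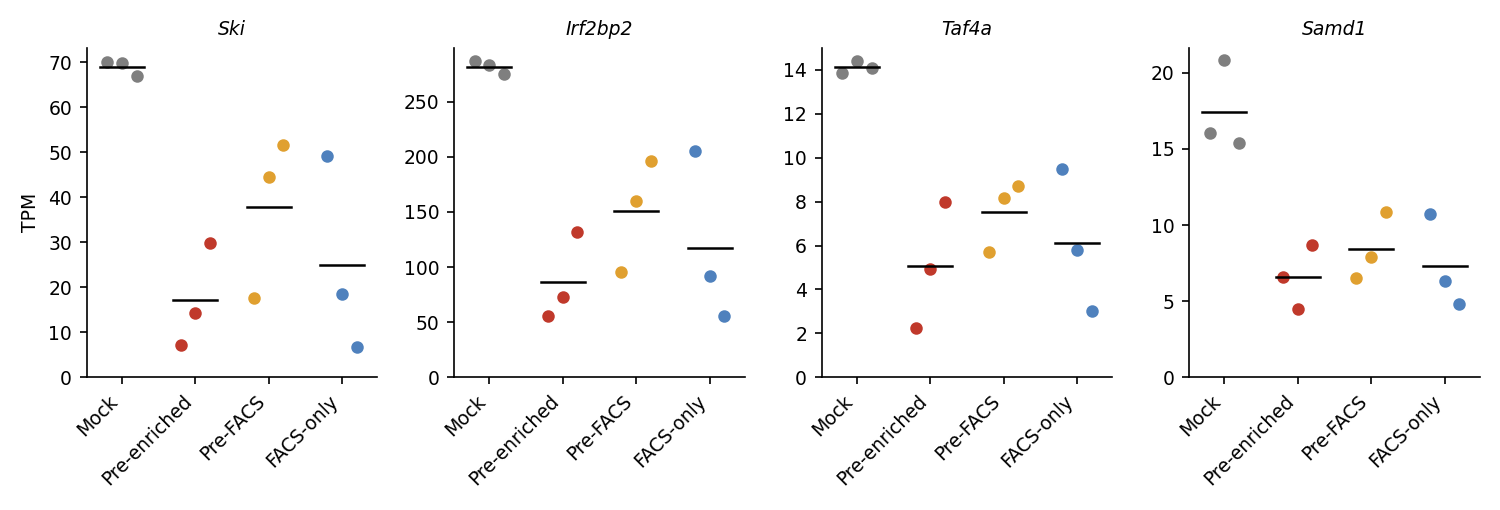
TPM of Ski, Irf2bp2, Taf4a and Samd1 in each of the 12 libraries, with 1 point per library in the order of replicates 1 to 3 and a horizontal stroke at the mean of each condition. The 3 Mock libraries of Ski (67.0 to 70.0 TPM) lie above all 9 others, which range from 6.80 to 51.5 TPM and spread within each condition.

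Of the 26 genes past 2-fold, 18 were higher and 8 lower, and the kinds of gene were unequal. Small nucleolar RNA genes gave 10 of the 18 higher genes and 1 of the 8 lower ones, and protein-coding genes gave 4 and 6. The groups did not overlap in 16 of the 26, and 10 of these 16 had a mean of at least 5 TPM. Snora52, a guide RNA for pseudouridylation, had 3.00, 0 and 0.980 TPM in Mock and 5.79, 8.81 and 4.78 TPM in Pre-enriched, the largest positive difference among genes without overlap (1.87, SE 0.50, limma adjusted p 0.405).

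Small nucleolar RNA genes as a class were on the higher side. Of 50 tested, 37 had a positive difference (74.0%, beside 46.5% of all genes). Among the 774 genes of up to 1000 bases that encode no ribosomal protein of the list, which include these 50, the share was 67.4%. Without overlap 8 of the 50 lay above Mock and 1 below it (beside 6.60% and 8.81% of all genes). The median difference of the 50 was 0.33 beside -0.01 over all genes. Their summed level was 861, 525 and 771 TPM in Mock and 748, 1057 and 996 TPM in Pre-enriched, so that the sums of the groups overlapped. FACS-only libraries had 867 to 1154 TPM and Pre-FACS libraries 666 to 686 TPM. These genes lie mostly in introns of other genes, and reads of the host transcript and of the small RNA cannot be told apart in a table of levels.

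Immediate-early genes, the usual sign of handling, did not separate the groups. Of 27 tested, 13 were higher and 14 lower, with a median difference of -0.01 (0.08 without Mock 3), and 22 had an interval within 1.5-fold. Junb, a subunit of the AP-1 factor, had 2221, 2125 and 2714 TPM in Mock and 2318, 2316 and 2767 TPM in Pre-enriched. Cyr61, a secreted matrix protein that YAP and SRF also induce, had 3441, 3566 and 4956 TPM against 4105, 4234 and 5518 TPM. Both overlapped, and in both the library with number 3 was the highest of each group. At each number, however, the Pre-enriched value of both genes was above the Mock value. The median deviation of the list had no such order. It was -0.026, -0.142 and 0.168 in Mock and -0.108, -0.073 and 0.097 in Pre-enriched. Klf4 (difference -0.21) was the 1 member at an unadjusted p under 0.05 (3.70% on the lower side, beside 4.58% of all genes).

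Chaperone genes of the heat-shock response showed small positive differences. Of 22 tested, 17 were higher, 4 lay above Mock and 1 below it without overlap (18.2% and 4.55%, beside 6.60% and 8.81% of all genes), and the median difference was 0.04. Hsp90aa1, the inducible cytosolic Hsp90, had 376, 377 and 375 TPM in Mock and 406, 429 and 419 TPM in Pre-enriched (difference 0.15, SE 0.05, limma adjusted p 0.475). Hsf1, the factor that drives the response, had 97.2, 93.7 and 89.5 TPM against 109, 104 and 106 TPM. Hspa8, the constitutive Hsp70 (difference 0.02), and Hsp90ab1 (0.04) overlapped, and the interval of each lay within 1.5-fold.

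Genes of the integrated stress response leaned the same way. Of 25 tested, 19 were higher, with a median difference of 0.09, and 3 lay above Mock without overlap (beside 6.60% of all genes). The median was 0.17 without Mock 1, 0.16 without Pre-enriched 3, 0.03 without Mock 3 and 0.02 without Pre-enriched 1. In each condition number 1 stood high and number 3 low for this list, so leaving out 1 of them unbalances the groups. With a term for replicate number, 7 of the 25 passed an unadjusted p under 0.05 on the higher side (beside 4.10% of all genes). In the main model 1 did (beside 3.19%). The 3 genes above Mock without overlap were Atf4, Nupr1 (difference 0.23) and Chac1, a glutathione-degrading enzyme and Atf4 target. Atf4, the central factor, had 754, 754 and 724 TPM in Mock and 802, 771 and 793 TPM in Pre-enriched. Chac1 had 123, 98.7 and 101 TPM in Mock and 141, 138 and 125 TPM in Pre-enriched (difference 0.33, SE 0.12, limma adjusted p 0.552). The aminoacyl-tRNA synthetase genes, many of them Atf4 targets, were higher in 15 of 20 with a median of 0.04 (-0.02 without Mock 3) and no gene without overlap. The 19 genes of the unfolded protein response of the endoplasmic reticulum had a median of -0.01, with 7 higher, and all 19 intervals lay within 1.5-fold.

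NF-kB subunits, inhibitors and targets were mostly lower than in Mock. Of 24 tested, 18 were lower, 4 of them at an unadjusted p under 0.05 (16.7% beside 4.58% of all genes) and none higher, with a median of -0.06. Without overlap 2 lay below Mock, a share near that of all genes (8.33% beside 8.81%), and 0 above it. Tnfaip3, the feedback inhibitor A20, had 201, 180 and 209 TPM in Mock and 159, 172 and 164 TPM in Pre-enriched (difference -0.25, SE 0.07, limma adjusted p 0.475). The chemokine gene Cxcl2 had 8.04, 4.34 and 12.2 TPM in Mock and 3.70, 3.03 and 3.31 TPM in Pre-enriched, without overlap (difference -0.99, SE 0.31). Nfkbia (difference -0.20) and Cxcl5 (-0.12) overlapped between the groups, as did Cxcl1 (-0.07). In FACS-only libraries Tnfaip3 had 206 to 253 TPM and Cxcl2 6.87 to 14.1 TPM, above every Pre-enriched value of the same gene. Pre-FACS libraries, from an aliquot banked before sorting, had 156 to 162 TPM of Tnfaip3 and 2.95 to 6.38 TPM of Cxcl2. Both ranges overlapped those of Pre-enriched. Whether that aliquot had met particles, lysis buffer or a hold is not stated by the study. The Mock values of Tnfaip3 all lay above those of Pre-FACS, and so did those of Nfkbia, with 294 to 360 TPM in Mock, 251 to 298 TPM in Pre-enriched and 221 to 249 TPM in Pre-FACS.

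Osmotic and iron-handling genes gave differences in both directions. Osmotic stress genes were lower in 9 of 13 (median -0.04, and 0.02 with the length trend of each library removed), with the water channel gene Aqp1 at 27.4, 32.1 and 31.8 TPM in Mock and 23.3, 25.1 and 24.7 TPM in Pre-enriched. Genes of lysosomes and iron handling were lower in 16 of 25 (median -0.02), and all 25 intervals lay within 1.5-fold. Their ferritin members Ftl1 (difference 0.05) and Fth1 (0.01), the iron store of the cell, overlapped between the groups. Hmox1, the heme-degrading enzyme, had 80.9, 76.8 and 67.4 TPM in Mock and 60.8, 63.7 and 58.4 TPM in Pre-enriched (difference -0.29, SE 0.09, limma adjusted p 0.475).

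Nrf2 targets of the oxidative stress response were lower in 14 of 20 (median -0.05). Nqo1, a quinone reductase, had 36.1, 43.7 and 42.3 TPM in Mock and 29.5, 29.2 and 34.7 TPM in Pre-enriched (difference -0.38, SE 0.11, limma adjusted p 0.475). The metallothionein genes, which bind zinc and are induced by metals, were on the other side. Mt2 had 325, 323 and 339 TPM in Mock and 419, 422 and 411 TPM in Pre-enriched, and Mt1 had 712, 761 and 723 TPM against 806, 816 and 802 TPM. In both genes the groups did not overlap, but Pre-FACS libraries alone ran from 243 to 412 TPM for Mt2, and the differences were 0.34 (SE 0.14, limma adjusted p 0.618) and 0.14. The list held 5 tested genes, 4 of them higher.

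Mechanical, membrane and death pathways had medians near that of all genes. Of 23 targets of YAP and SRF 11 were higher, with a median of -0.01, and the actin-bound proteins Tpm1 (592 to 601 TPM in Mock, 637 to 653 TPM in Pre-enriched) and Cnn2 (275 to 294 and 300 to 321 TPM) did not overlap. Genes of membrane repair were lower in 9 of 14 (median -0.03), and 4 of them lay below Mock without overlap (28.6%, beside 8.81% of all genes). These were the ESCRT gene Chmp4b (difference -0.35), its partner gene Pdcd6ip (-0.11) and the annexin genes Anxa1 (-0.07) and Anxa4 (-0.05), the last of them picked after its values had been seen, while Anxa2 (-0.03) and Anxa5 (-0.03) overlapped. Targets of p53 (9 of 21 higher, median -0.01) and genes of the apoptosis machinery (7 of 18 higher, median -0.04) stood near the median of all genes.

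**Figure D4:**
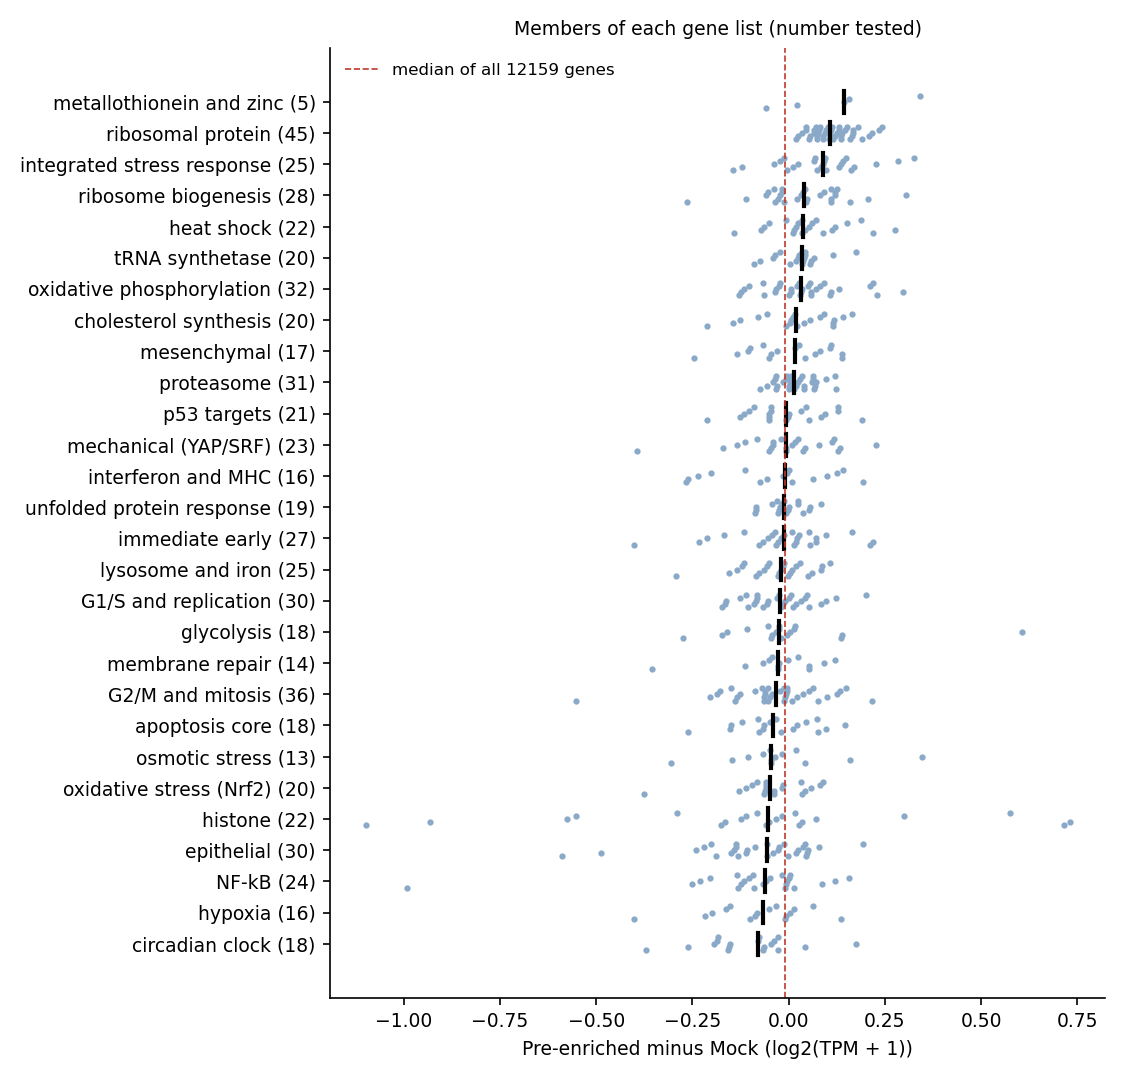
Each point is the difference of 1 gene, Pre-enriched minus Mock on the log2(TPM + 1) scale, in the lists with at least 5 tested members, with a black stroke at the median of the list and a dashed line at the median of all 12159 genes. The lists run from metallothionein genes (median 0.14) and ribosomal protein genes (0.11) at the top to clock genes (-0.08) at the bottom, and no gene in them passed the adjusted threshold.

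Metabolic lists had medians between -0.07 and 0.03. Hypoxia targets were lower in 12 of 16 (median -0.07), with the mitophagy receptor gene Bnip3 at 271, 253 and 233 TPM in Mock and 224, 215 and 219 TPM in Pre-enriched. Glycolysis genes were lower in 12 of 18 (median -0.02), with the abundant members Pkm (difference -0.02) and Ldha (-0.0045) overlapping and the neuronal enolase gene Eno2, at 2.96 to 4.63 TPM in Mock and 5.16 to 6.78 TPM in Pre-enriched, on the other side. Cholesterol synthesis genes were higher in 14 of 20 (median 0.02), 4 of them at an unadjusted p under 0.05 (beside 3.19% of all genes), and all 20 intervals lay within 1.5-fold. Among those of lowest p were the enzyme genes Nsdhl (0.16) and Sc5d (0.12). Nuclear genes of oxidative phosphorylation were higher in 22 of 32 (median 0.03), among them Ndufa10 of complex I, at 150 to 169 TPM in Mock and 181 to 196 TPM in Pre-enriched.

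Proliferation genes leaned slightly to the lower side. Genes of DNA replication and the G1/S step were lower in 18 of 30 (median -0.02), and all 30 intervals lay within 1.5-fold. Genes of mitosis were lower in 25 of 36 (median -0.03, and 0.02 without Pre-enriched 1), 6 of them below Mock without overlap (16.7% beside 8.81% of all genes), with the motor gene Kifc1 at 16.2, 17.4 and 17.3 TPM in Mock and 10.1, 13.2 and 10.6 TPM in Pre-enriched (difference -0.55, SE 0.13, limma adjusted p 0.291). Ccnb1, the mitotic cyclin, had 234 to 258 TPM against 198 to 228 TPM. Histone genes ranged from -1.10 for Hist1h2ae to 0.73 and only 10 of 22 intervals lay within 1.5-fold. Several histone genes share near-identical sequence, and their values are uncertain.

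Genes of epithelial identity leaned to the lower side and those of other identities were nearly level. Of 30 epithelial genes 21 were lower, with a median of -0.06, and 6 of them passed an unadjusted p under 0.05 on that side (beside 4.58% of all genes). Elf3, an epithelial transcription factor, had 270, 265 and 272 TPM in Mock and 240, 241 and 249 TPM in Pre-enriched (difference -0.14, SE 0.05, limma adjusted p 0.475), and Sox9, a factor of ductal cells, had a difference of -0.22 with overlap. The tight junction gene Cldn7 (-0.59) was at 3.43 to 7.65 TPM. Mesenchymal genes were split, with 9 of 17 higher and a median of 0.02, and Vim overlapped (difference -0.04). Genes of the interferon response and of antigen presentation had a median of -0.01 over 16, and B2m had 273 to 282 TPM in Mock and 255 to 291 TPM in Pre-enriched. Clock genes were lower in 16 of 18 (median -0.08), none at an unadjusted p under 0.05.

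Ribosomal protein genes were the list with the most even direction. All 45 tested were higher in Pre-enriched, beside 46.5% of all genes, with a median of 0.11 and a range from 0.02 (Rps3) to 0.24 (Rpl38). In 26 of 45 (57.8%, beside 6.60% of all genes) every Pre-enriched value was above every Mock value. None passed an unadjusted p under 0.05, the interval of each included 0, and 44 of 45 intervals lay within 1.5-fold. The members varied together over the libraries, so the 45 are not independent of each other.

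Rps20, of the small subunit, had 319, 330 and 351 TPM in Mock and 402, 372 and 403 TPM in Pre-enriched (difference 0.23, SE 0.13). Rpl38, of the large subunit, had 135, 160 and 139 TPM against 165, 178 and 170 TPM. These groups did not overlap. Many processed pseudogenes resemble ribosomal protein transcripts, so their reads may be shared.

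The level of the list separated the groups compared, and it varied more widely among the Pre-FACS and among the FACS-only libraries. As the median deviation of its members from their mean over 12 libraries, it was -0.096, -0.0033 and -0.074 in Mock and 0.064, 0.045 and 0.058 in Pre-enriched, without overlap. In Pre-FACS it was 0.281, -0.085 and -0.160, and in FACS-only 0.230, -0.077 and -0.104, so that the first library of each stood above all others. Leaving out these 2 libraries, which was chosen after the data had been seen, alters the estimate of spread and not the differences, and 22 of the 45 then passed an unadjusted p under 0.05 on the higher side (beside 4.24% of all genes). The 28 genes of ribosome biogenesis had a median of 0.04 with 17 higher, Npm1 among them (825 to 864 TPM in Mock, 895 to 930 TPM in Pre-enriched), and the 31 proteasome genes a median of 0.01 with 20 higher.

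Ribosomal protein transcripts are known for a pyrimidine tract that opens with C at the very start of the transcript and links their translation to the mTOR pathway. Start sites from RefSeq (GRCm38.p6) were at hand for 34 of the 45 genes. A C at the start base followed by at least 4 bases that are C or T, read on the transcript strand only, was found in 7 of the 34 (20.6%), beside 3.01% of 27025 genes with a start site. The 7 windows are shown because these genes share a direction in the comparison, each with 40 bases before and 20 from the start onward and with the tract in capitals.
Rpl14, chr9:120571477-120571536, plus strand: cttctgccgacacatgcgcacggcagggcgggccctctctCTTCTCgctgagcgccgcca
Rpl15, chr14:18270967-18271026, minus strand: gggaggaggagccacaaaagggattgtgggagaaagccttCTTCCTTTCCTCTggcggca
Rpl28, chr7:4792925-4792984, plus strand: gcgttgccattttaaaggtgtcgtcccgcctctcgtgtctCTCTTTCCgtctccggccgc
Rpl35, chr2:39005112-39005171, minus strand: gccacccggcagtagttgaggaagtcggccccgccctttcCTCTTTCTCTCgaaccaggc
Rpl38, chr11:114668540-114668599, plus strand: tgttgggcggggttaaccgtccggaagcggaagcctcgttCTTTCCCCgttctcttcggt
Rps18, chr17:33955646-33955705, minus strand: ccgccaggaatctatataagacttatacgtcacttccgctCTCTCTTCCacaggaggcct
Rps6, chr4:86857348-86857407, minus strand: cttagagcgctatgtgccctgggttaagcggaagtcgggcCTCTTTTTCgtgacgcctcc
The differences of these 7 ran from 0.02 for Rpl35 to 0.24 for Rpl38, with 0.17 for Rps18, 0.16 for Rpl28, 0.13 for Rps6 and 0.07 for both Rpl14 and Rpl15. A match of these letters is a description of the annotated start and not a measured start in these cells.

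Transcript length moved with the difference over the whole table. Over 12094 genes with an annotated length, Spearman's rho between length and difference was -0.26 across genes, which are not independent, and between GC content and difference it was 0.006. Among the 10% of genes with the shortest transcripts (63 to 1201 bases) 66.9% were higher, with a median of 0.07, and among the 10% with the longest (6530 bases or more) 29.3% were higher, with a median of -0.08. Ribosomal protein genes are short, with a median transcript of 975 bases. Of 774 other genes of up to 1000 bases 67.4% were higher, with the same median of 0.07, and of the 211 among them with a mean of at least 100 TPM 77.3% were higher.

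The balance of short against long transcripts differed by library. It was -0.090, -0.0076 and -0.106 in Mock and 0.105, 0.025 and 0.101 in Pre-enriched as the difference of median deviations on the log2 scale, without overlap, and 0.288 and 0.218 in the first Pre-FACS and FACS-only libraries. With the length trend of each library removed, 43 of 45 ribosomal protein genes were higher with a median of 0.07, and 4 of them passed an unadjusted p under 0.05 on that side (beside 4.23% of all genes). No gene was called with that trend removed, and none of the 23 genes of lowest p or largest difference changed direction.

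**Figure D5:**
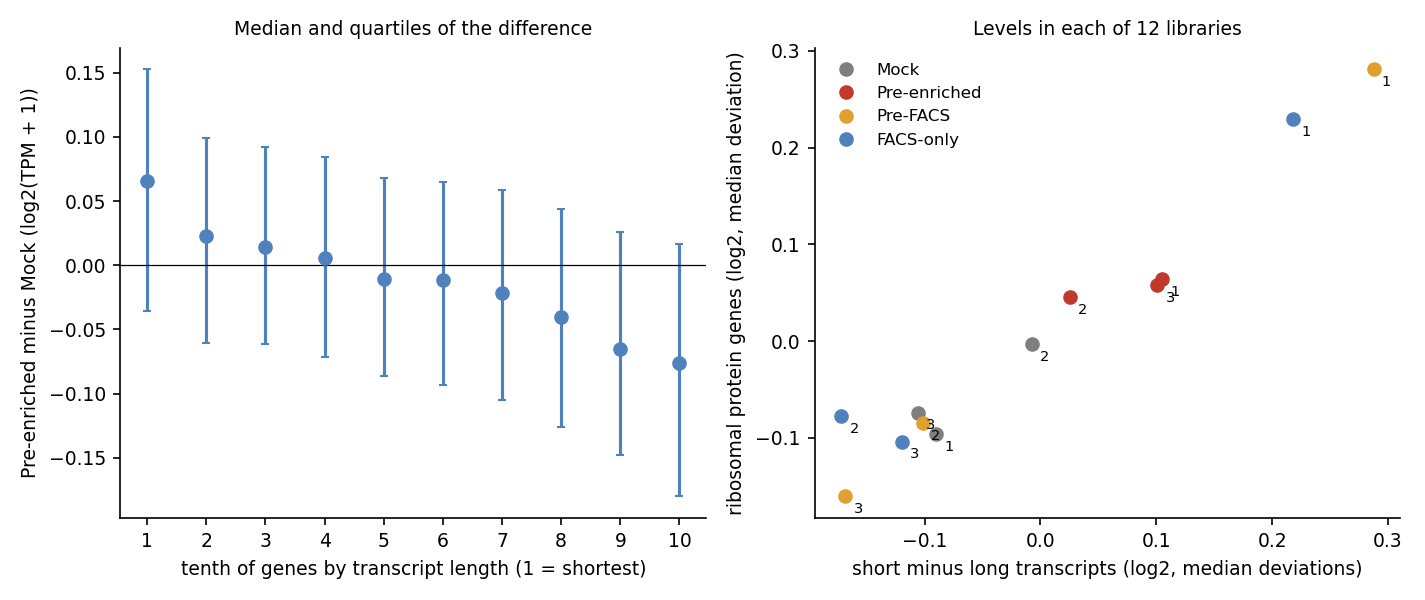
The left panel gives the median (point) and quartiles (bars) of the difference, Pre-enriched minus Mock on the log2(TPM + 1) scale, in each of 10 equal classes of 12094 genes by transcript length, falling from 0.07 in the shortest to -0.08 in the longest. The right panel plots, for each of 12 libraries, the median deviation of the 45 ribosomal protein genes against that of short (up to 1000 bases) minus long (over 5000 bases) transcripts, both on the log2 scale, with numbers for replicates, and the first Pre-FACS and FACS-only libraries lie at the upper right.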

How the data were processed

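The authors aligned reads to mm10 with ERCC92 added using STAR, counted reads per gene with featureCounts, applied EDASeq's upper-quartile scaling and divided by effective gene length. They deposited the TPM of 13845 genes. The submitters' processing notes name STAR 2.52. The gene annotation and the rule that chose these genes are not given in the sources used here, and no depth can be read from TPM. Here log2(TPM + 1) was taken, and limma (version 3.58.1 in R 4.3.3, with mean-variance trend) was fitted to 12 libraries and 12159 genes, with no replicate term and a threshold of 0.05. The study's methods name no test for this comparison. The code was checked on simulated data. Lengths, positions and kinds of gene came from GENCODE for mm10, in which 99.3% of symbols were found (415 by an older symbol).

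The members and the 32 gene lists were chosen with earlier results of these data known, and lists were described without a set test. The list of 13 mitochondrial genes had no member among the genes analysed. Named genes were the 10 of lowest p in each direction, the 3 of largest difference in each direction without overlap, from each list the 3 of lowest p and the 2 of highest level, and any gene called under an alternative. Some items, among them an allele of the line, are not reported here. Columns of values left unused numbered 0. The alternatives were another pseudocount, filter, scaling, variance model, replicate term and choice of libraries.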

Additional observations from a re-analysis of the deposited data

How the results depend on the processing

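Where no gene was called at an adjusted p under 0.05, some alternatives called a few by limma. Without a filter 1 gene was called and without the mean-variance trend 1, in both cases Fam166a. With only the 6 libraries compared 4 genes were called, which are named in the report. With Pre-FACS 1 and FACS-only 1 both left out, chosen after the data had been seen, 3 genes were called: Irf2bp2 (adjusted p 0.0107), Mt2 (0.0146) and Samd1 (0.0490). With the replicate block 2 genes were called, Clca1 and 1810011O10Rik (217, 181 and 209 TPM in Mock and 258, 233 and 271 TPM in Pre-enriched), both with an adjusted p of 0.0442. Deviations of same-numbered Mock and Pre-enriched libraries correlated at -0.04 to 0.10 and not every library correlated best with its own number, so the main model held no replicate term. These correlations do not exclude an effect of the number on some genes. Integrated stress response and tRNA synthetase genes followed it in all 4 conditions. Immediate-early genes were highest in number 3, and G1/S genes lowest in number 1, of each condition. Leaving out each library in turn called 0 to 0 genes, with 723 to 1037 at an unadjusted p under 0.05, 9018 to 9863 intervals within 1.5-fold and an excess of r of 0.000728 to 0.00136. A test made gene by gene and a threshold of 0.1 also called 0. Over all alternatives the unadjusted count ran from 723 to 1209, and none of the 23 genes of lowest p or largest difference changed direction. Of 30 list medians, 16 changed sign under at least 1 alternative, and 4 did so with the length trend removed. The depth of the libraries is unknown, and 24.4% of genes under 5 TPM had an interval within 1.5-fold.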

Other observations

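Secreted and transcription factor genes of gastric-type and foregut epithelium lay on the lower side. A list of 40 such genes was written after the values of Clca1, Gkn2, Sox4, Foxa2, Hhex and Foxq1 had been seen, so its counts describe and support nothing. Of 29 tested, 23 were lower, 10 lay below Mock and 2 above it without overlap (beside 8.81% and 6.60% of all genes), and the median difference was -0.07 beside -0.01 over all genes. Foxa2, a pioneer factor of foregut endoderm, had 84.5, 79.1 and 89.9 TPM in Mock and 71.7, 68.3 and 69.6 TPM in Pre-enriched (difference -0.27). The homeobox gene Hhex had 104, 103 and 109 TPM against 84.2, 88.0 and 86.1 TPM. Gkn1 and Gkn3, neighbors of Gkn2 in the gastrokine family, had differences of -0.26 and -0.60, and Hnf4a, a nuclear receptor of gut and liver, had 389, 382 and 383 TPM against 338, 364 and 358 TPM. The trefoil genes Tff1 (-0.05), Tff2 (0.02) and Tff3 (0.06) and the mucin gene Muc1 (0.05) overlapped. As the median deviation from the mean over 12 libraries, the list stood at -0.021 to 0.055 in Mock, -0.086 to -0.052 in Pre-enriched, 0.038 to 0.065 in Pre-FACS and -0.039 to 0.023 in FACS-only.

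Some genes followed the profile of Ski over the 12 libraries, a likeness that was looked for after its values had been seen and is given with no test. Of 10130 genes with a mean of at least 5 TPM, 31 others had a Pearson's r with Ski of at least 0.8. The closest were Irf2bp2 (0.99), Taf4a (0.98), the zinc finger gene Zfp777 (0.96), the histone demethylase gene Phf2 (0.93) and Ppp4r1 (0.93). Ranbp9 (r 0.88), a scaffold protein, had 97.3, 85.0 and 101 TPM in Mock and 25.3, 50.4 and 64.7 TPM in Pre-enriched, and 10.5 TPM in FACS-only 3.

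Genes of the integrated stress response tracked the replicate number in every condition. As the median deviation of 25 genes, the libraries with number 1 stood at 0.120 in Mock, 0.189 in Pre-enriched, 0.086 in Pre-FACS and 0.104 in FACS-only. Those with number 3 stood at -0.167, -0.125, -0.170 and -0.138. The aminoacyl-tRNA synthetase genes did the same, with 0.032 to 0.104 in number 1 and -0.119 to -0.052 in number 3. What a replicate number shares is not given in the labels.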
